A study of Mus musculus with 16 samples.

Results

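Open chromatin was examined at 10 genes of the Wnt pathway in 16 ATAC-seq peak lists of mouse cells. The genes were chosen by name, as 10 of 21883 protein-coding genes of the mm10 gene table, and all 10 matched it. They are the ligand gene Wnt3, the co-receptor gene Lrp6, the antagonist gene Dkk1, the β-catenin gene Ctnnb1, the feedback inhibitor gene Axin2, the TCF/LEF genes Tcf7l1, Tcf7l2, Tcf7 and Lef1, and the target gene Sp5. Each locus was the gene body and 50 kb beyond either end, and every peak in such a window was taken. The windows also hold all or part of 14 neighbouring protein-coding genes, and the windows of Tcf7l2 and Axin2 hold none.

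In Wnt signalling a secreted ligand binds a Frizzled receptor together with Lrp6 or Lrp5, which stops the destruction complex of Axin, APC and GSK3 from degrading β-catenin. β-catenin then enters the nucleus and acts through TCF/LEF proteins, which bind DNA and, without it, can hold their targets repressed. In mouse ESCs, Tcf7l1 limits the self-renewal network, and in the embryo restraint of Wnt signalling, in part by Dkk1, is needed for the forebrain and the eye field.

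ATAC-seq marks open DNA by transposase insertion, and a peak is an interval where a caller found more insertions than in the background. By label, all cells carried an Rx:GFP knock-in, GFP placed at an eye field gene. The embryoid bodies were made by SFEBq, a floating aggregate culture that leads to neural tissue, in GMEM with KSR and added matrigel. The embryoid body groups were Wdr5 and p53 double knockout (DKO), whose labels give no day, and parental Rx:GFP, at day 4 by label. The ESC groups, all kept in 2i+LIF, were DKO cells stably transfected with a backbone plasmid, DKO cells with a WDR5S91K-Y191F plasmid, DKO cells with a WDR5WT plasmid, p53 knockout clones C9 and H9, and the parental line. 2i includes an inhibitor of GSK3, which is known to stabilise β-catenin, and every ESC group received it. WDR5 is a scaffold of the histone methyltransferase complexes built on SET1 and MLL enzymes. The stress-response factor p53, encoded by Trp53, is lacking by label in every DKO and p53 knockout group. Each of the 8 groups had 2 replicates, which are not said to be separate cultures, so p-values measure the spread between these libraries only. Each p53 knockout group is a single clone, and the labels name neither the clone behind the DKO lines nor the promoter of the plasmids. Genotype and day cannot be told apart in the embryoid bodies.

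The lists hold no read counts, so depth is unknown and counting error cannot be stated. Embryoid body lists had 75673 to 93646 peaks and ESC lists 1535 to 32709, and the embryoid body lists and the ESC lists were made in different formats. The 6 parental, backbone and S91K-Y191F ESC lists had widest peaks of 18810 bp or more and the other 6 ESC lists of 15921 bp or less. No label divides the ESC lists in this way. Whatever lies behind the widths cannot be told apart from genotype. A peak lay over the Wdr5 promoter in all 4 embryoid body lists and in 1 ESC list, and over the Trp53 promoter in all 4 and in 1, which does not check a deletion elsewhere in the gene. Of 8 neuroectoderm and eye field markers, 6 had a peak within 1 kb of a gene end in each DKO embryoid body list and 8 in each parental list, with Six3 at 0 of 2 DKO lists. Of 10 naive and core pluripotency markers, 7 and 8 had one in DKO and 9 in each parental embryoid body list, with Esrrb at 0 of 2 DKO lists. All 4 fibroblast markers and 4 of 5 primitive streak and mesoderm markers had one in every embryoid body list, and of 4 endoderm and of 4 trophectoderm markers 2 had one in DKO and 2 to 3 in parental lists. In ESC lists 1 to 8 of the 10 pluripotency markers had one. A peak at a gene end is not expression, and in bulk cultures fewer cells with an open region and less opening per cell cannot be told apart. The part of these marker peaks in the results below was not tested.

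The promoters of 4 members are shown because they carry the contrasts below. Those of Tcf7l1 and Axin2 had peaks in the largest number of ESC lists, that of Sp5 had none in any list, and those of Sp5 and Dkk1 hold a TCF/LEF core motif. The sequences are RefSeq's (GRCm38.p6), 250 bases before to 50 bases after an annotated start, read 5′ to 3′ on the gene's strand. They span chr6:72788996-72789295 (minus strand, Tcf7l1), chr11:108920099-108920398 (plus strand, Axin2), chr2:70474673-70474972 (plus strand, Sp5) and chr19:30549447-30549746 (minus strand, Dkk1). Capitals mark CTTTGAA or CTTTGAT, 2 forms of the TCF/LEF core that were searched on both strands; no 2 matches overlapped.
Tcf7l1: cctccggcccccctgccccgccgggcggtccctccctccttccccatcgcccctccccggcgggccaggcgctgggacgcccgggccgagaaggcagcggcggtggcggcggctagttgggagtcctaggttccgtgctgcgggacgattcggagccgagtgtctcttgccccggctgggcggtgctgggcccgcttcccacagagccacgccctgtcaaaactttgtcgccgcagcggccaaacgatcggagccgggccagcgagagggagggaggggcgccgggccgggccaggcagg
Axin2: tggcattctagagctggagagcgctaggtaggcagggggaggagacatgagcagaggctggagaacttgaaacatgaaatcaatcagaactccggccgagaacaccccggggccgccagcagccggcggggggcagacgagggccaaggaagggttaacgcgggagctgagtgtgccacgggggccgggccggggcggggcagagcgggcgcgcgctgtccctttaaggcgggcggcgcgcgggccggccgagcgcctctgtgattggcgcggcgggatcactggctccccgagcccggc
Sp5: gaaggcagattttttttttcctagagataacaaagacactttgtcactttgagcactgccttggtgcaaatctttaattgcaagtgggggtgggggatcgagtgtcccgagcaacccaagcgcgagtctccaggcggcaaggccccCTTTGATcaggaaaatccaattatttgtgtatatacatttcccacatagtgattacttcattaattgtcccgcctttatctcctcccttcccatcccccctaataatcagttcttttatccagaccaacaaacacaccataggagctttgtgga
Dkk1: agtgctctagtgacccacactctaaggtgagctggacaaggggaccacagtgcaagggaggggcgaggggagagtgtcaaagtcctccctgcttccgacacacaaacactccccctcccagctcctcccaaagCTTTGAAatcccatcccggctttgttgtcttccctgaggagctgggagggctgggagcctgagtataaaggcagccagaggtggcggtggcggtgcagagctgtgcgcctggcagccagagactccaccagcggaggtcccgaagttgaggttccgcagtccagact

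The motif CTTTGAT starts 104 bases upstream of the Sp5 start, and CTTTGAA starts 117 bases upstream of the Dkk1 start. Of 15 promoter windows of the 9 members with an entry, these 2 held a match. Of 32851 promoters of the same length in the table, 8.65% held either form, 5.14% CTTTGAA and 3.73% CTTTGAT. A match describes the letters and not a bound site, and a window with no match says nothing about TCF/LEF at that gene.

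Promoters of the members were open in embryoid bodies of both genotypes. In all 4 embryoid body lists a peak lay over an annotated promoter of Wnt3, Dkk1, Ctnnb1, Axin2, Tcf7l1, Tcf7l2, Tcf7 and Lef1, and over an end of Lrp6. The exception was Sp5, an Sp/KLF family repressor and a direct β-catenin target, whose promoter window had no peak in any of the 16 lists. By the measure used for Lrp6, a peak within 1 kb of a gene end, Sp5 had one in 3 embryoid body lists and 2 ESC lists. The 3 were DKO replicate 2 and both parental lists. At Tcf7l1 the promoter peak had a fold enrichment over local background, as the authors' caller gave it, of 3.69 and 4.11 in DKO lists and 4.28 and 4.46 in parental lists. At Dkk1 it had 4.65 and 3.99 in DKO lists and 4.1 and 3.92 in parental lists, and at Axin2 3.55 and 3.57 in DKO lists and 2.92 and 3.1 in parental lists. These folds rank peaks within a list and were not compared between lists. By that rank the Tcf7l1 promoter peak stood above 59.0% and 66.0% of the peaks of the DKO lists and above 73.9% and 76.6% of those of the parental lists. No region found in a single embryoid body genotype overlapped an annotated promoter window of a member.

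**Figure D1:**
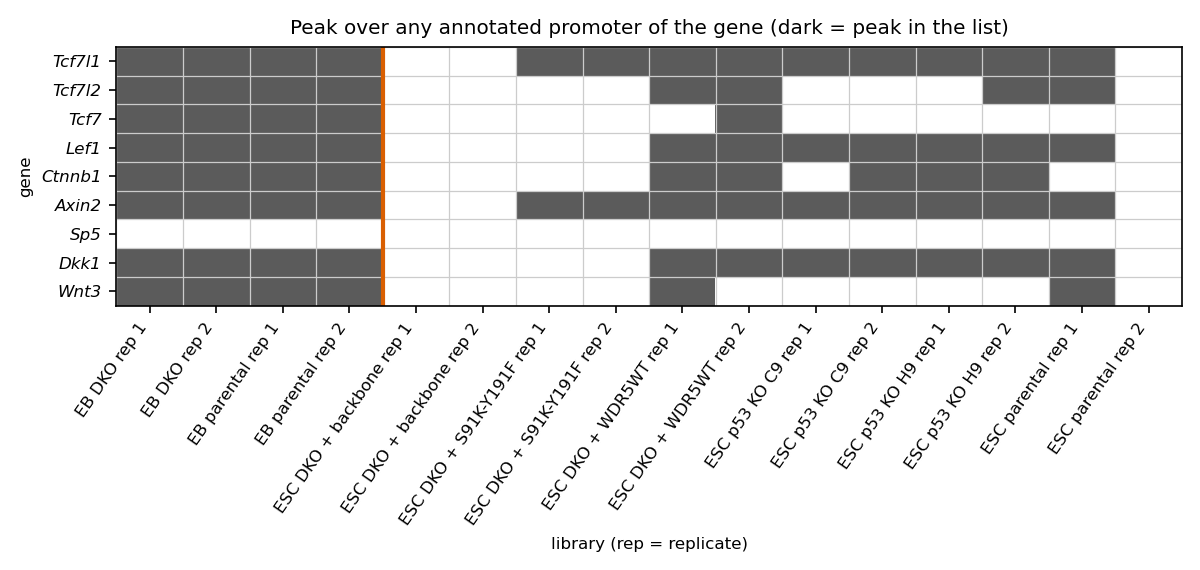
Peaks over annotated promoters of the 9 members with a promoter entry, in each of the 16 lists (columns; an orange line divides the 4 embryoid body lists from the 12 ESC lists). A dark cell is a list with a peak over at least 1 promoter of the gene; the 4 embryoid body columns are dark for every gene but Sp5, and both backbone columns are empty.

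The 10 loci together held 105 and 112 peaks in DKO embryoid bodies, against 153 and 132 in parental embryoid bodies. As a share of each list this was 0.134% and 0.12% in DKO and 0.169% and 0.174% in parental lists. The groups did not overlap: the mean share was 0.127% ± 0.0105 in DKO and 0.172% ± 0.00372 in parental embryoid bodies (SD, n = 2 each), a difference of -0.0448 percentage points. The two-sided exact permutation test gave p = 0.333, the smallest that 2 libraries against 2 can give. No design of this size can reach 0.05. The loci include Tcf7l1, Tcf7l2, Dkk1 and Wnt3, chosen with their parental-only regions known. That choice favoured a lower DKO share, so the sign and the lack of overlap are not read as a result.

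By gene, both DKO lists had fewer peaks than both parental lists at 8 of the 10 loci, against 15.7% of all genes with the same 50 kb flanks. At 0 of the 10 both DKO lists had more, against 9.73% of all genes. The members' windows were 103 to 292 kb long, and the shares over all genes were not matched for window length or number of peaks. Tcf7l1, the mainly repressive TCF of ESCs, had 17 and 21 peaks in DKO against 22 and 24 in parental lists. Lrp6 had 12 and 10 in DKO against 16 and 15 in parental lists, Wnt3 7 and 9 in DKO against 13 and 11 in parental lists, and Dkk1 5 and 3 in DKO against 9 and 7 in parental lists. The lengths of the whole lists overlapped between genotypes, at 78106 and 93646 peaks in DKO and 90436 and 75673 in parental lists. Ctnnb1, which encodes β-catenin, had the fewest in DKO, with 3 and 3 peaks against 8 and 6 in parental lists. Sp5 had 5 and 4 in DKO against 7 and 6 in parental lists, and Lef1 14 and 20 in DKO against 23 and 21 in parental lists. Tcf7l2, a TCF known for roles in gut and brain, had 18 and 15 in DKO against 25 and 19 in parental lists. At Axin2 the genotypes overlapped, with 10 and 14 peaks in DKO and 17 and 13 in parental lists. Tcf7 was the exception in direction, with 14 and 13 peaks in DKO and 13 and 10 in parental lists. These counts per gene have no test, and those at Tcf7l1, Tcf7l2, Dkk1 and Wnt3 hold the parental-only regions known when the genes were chosen.

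**Figure D2:**
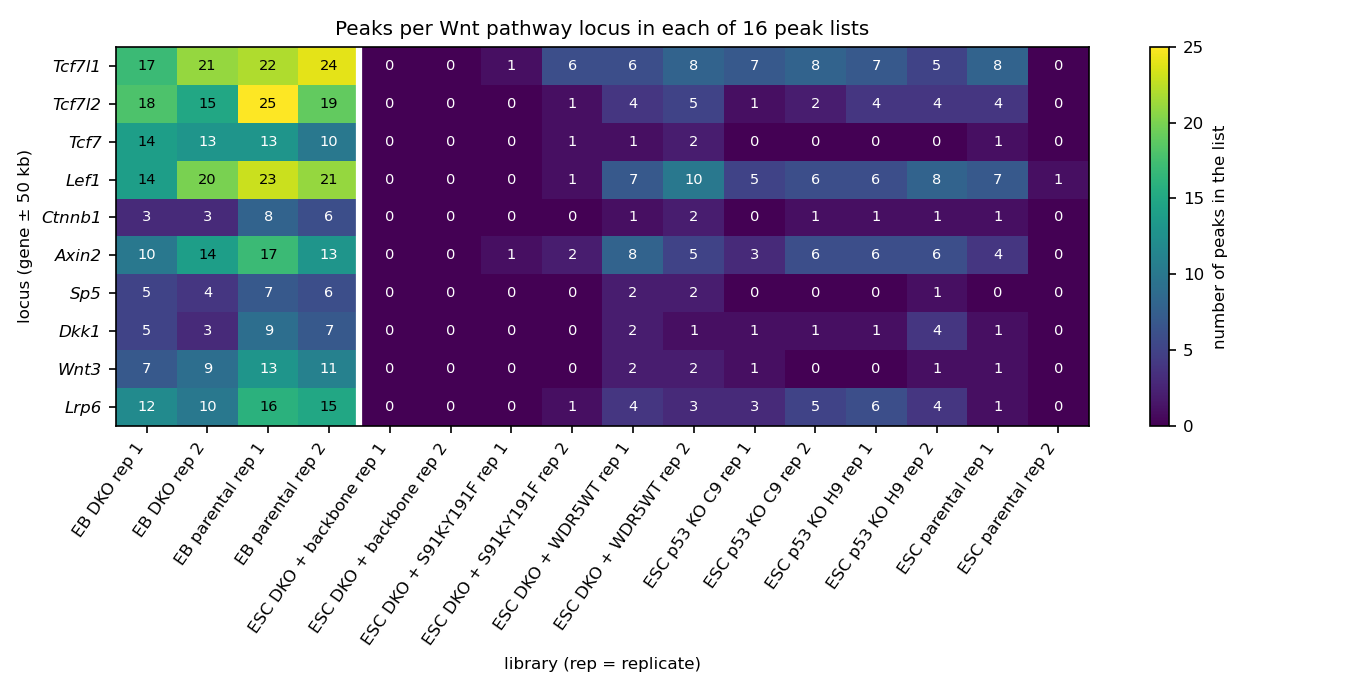
Number of peaks per locus (rows; gene and 50 kb on either side) in each of the 16 lists (columns, embryoid bodies left of the white line). The cells print the counts: 105 and 112 peaks in all fell in the 10 loci in the DKO embryoid body lists, 153 and 132 in the parental ones, and 0 in both backbone ESC lists.

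Peaks of the 4 embryoid body lists were merged where they overlapped by at least 1 bp, which gave 202 regions in the 10 loci, 9.44 to 15.0 per 100 kb of window. A region is called parental-only when both parental lists and neither DKO list had a peak in it, and DKO-only in the reverse case. Of the 202 regions, 3 were DKO-only (1.49%), where 3.78% of all 109456 regions within 50 kb of a gene were. Parental-only regions numbered 23 (11.4%), where 4.59% of all regions were. All 4 lists shared 66 (32.7%), close to the 32.2% of all regions. On chromosomes 2, 3, 6, 9, 11 and 19 alone, which carry the members, 3.28% of regions were DKO-only and 4.81% parental-only. The loci thus held fewer DKO-only and more parental-only regions than the background, with about the same shared part. Part of this was known when the genes were chosen, since parental-only regions at Tcf7l1, Tcf7l2, Dkk1 and Wnt3 had been seen. Without these 4 genes, 114 regions were left, of which 0 were DKO-only and 8 parental-only (7.02%).

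The counts depended on the libraries and on a cut by peak strength. DKO-only and parental-only regions numbered 17 and 29 without DKO replicate 1, 13 and 31 without DKO replicate 2, 9 and 41 without parental replicate 1, and 4 and 52 without parental replicate 2. In each of these settings the DKO-only share was below its background (5.08% against 8.45% without parental replicate 1, for example) and the parental-only share above it (23.2% against 14.8%). All of them use the same loci and overlapping libraries, and the choice of Tcf7l1, Tcf7l2, Dkk1 and Wnt3 favoured this direction. The repeated direction is thus not read as a result. With each list first cut to its upper 50% by deposited −log10 p, calling gave 95 regions. Of these, 5 were DKO-only (5.26%, background 4.64%) and 11 parental-only (11.6%, background 6.18%). The full lists gave 3 DKO-only regions. After the cut a region can also become DKO-only because a parental peak in it was removed. The low DKO-only share was not seen at this cut, which does not show DKO-only regions among the stronger peaks.

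The remaining 110 regions had mixed patterns. A single parental list held 46 of them (22.8% of the 202; background 21.6%) and a single DKO list 24 (11.9%; background 20.0%). Parental replicate 1 alone had 29 and parental replicate 2 alone 17, while DKO replicate 1 alone had 10 and DKO replicate 2 alone 14. A further 14 regions were in both parental lists and 1 DKO list, and 7 in both DKO lists and 1 parental list. Of 97 regions in the gene bodies, 2 were DKO-only (2.06%) and 12 parental-only (12.4%). Over all gene bodies the shares were 3.29% and 4.62%. In the flanks out to 50 kb the counts were 1 and 11 of 105. In the next zone, 50 to 100 kb from the genes, they were 6 DKO-only and 5 parental-only of 93. No share over all regions is given for the flanks or this farther zone, so their counts are only described. The zones cannot be set against each other, since the gene bodies and near flanks hold the parental-only regions known when the genes were chosen and the farther zone played no part in that choice.

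**Figure D3:**
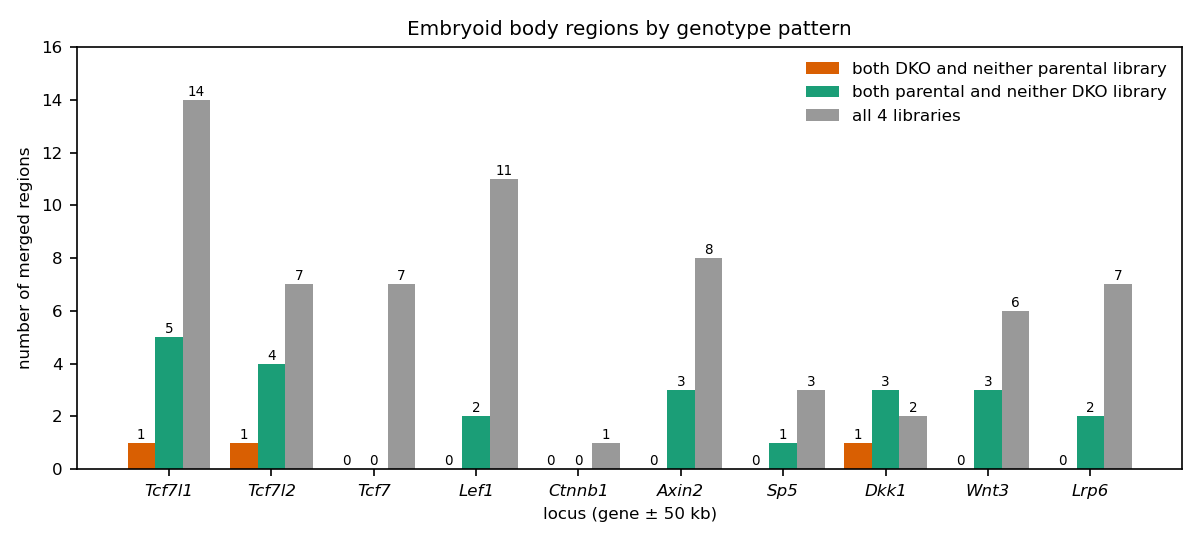
Merged embryoid body regions per locus that were found in both DKO and neither parental library (orange), in both parental and neither DKO library (green) or in all 4 libraries (grey). Parental-only bars sum to 23 and DKO-only bars to 3, and Tcf7 and Ctnnb1 have neither.

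At least 1 parental-only region lay at 8 of the 10 members, against 34.3% of all genes, and at least 1 DKO-only region at 3 of 10, against 27.0% of all genes. Of the 8, Tcf7l1, Tcf7l2, Dkk1 and Wnt3 were chosen with their parental-only regions known, so nothing is read from the first share. Tcf7l1 had 5 parental-only regions, Tcf7l2 4, Axin2, Dkk1 and Wnt3 3 each, Lef1 and Lrp6 2 each and Sp5 1. Over all genes, Gpc6 (10), Gse1 (8) and Auts2 (7, as did Fhit, Kalrn and Pip5k1c) had the most, in windows that differ in length.

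At Wnt3, whose ligand is needed for the primitive streak, all 3 parental-only regions lay upstream of the start. They were chr11:103758802-103759143, chr11:103765511-103766011 and chr11:103772326-103772819, with midpoints 15.2, 8.41 and 1.6 kb before it. Their folds were 3.18 and 3.02, 2.76 and 2.81, and 2.34 and 2.33 in parental replicates 1 and 2. The last pair ranked near the bottom, above 1.34% and 0.628% of the peaks of its lists. All 3 lie inside the annotated body of Wnt9b, another Wnt ligand gene, so they cannot be given to Wnt3 alone. The 6 shared regions included the Wnt3 promoter and chr11:103840612-103841311, inside Nsf, with folds of 4.67 and 5.09 in DKO and 5.76 and 5.69 in parental lists.

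Lrp6 and Dkk1 act at the cell surface, the first as Wnt co-receptor and the second as the secreted inhibitor that binds it. Neither parental-only region in the Lrp6 window lay in the gene. One, chr6:134416524-134417214, lies in Bcl2l14 and had folds of 2.75 and 2.8, and the other, chr6:134615355-134615570, lies in Mansc1 and had 4.06 and 3.59. At Dkk1 the 3 parental-only regions lay beyond the 3′ end, with midpoints 22.0, 34.7 and 42.8 kb downstream of the start. The farthest, chr19:30506408-30506937, had folds of 5.6 and 4.09, above 90.9% and 68.4% of the peaks of the parental lists, and the nearest DKO peak lay 10.9 kb away. The others were chr19:30514596-30514916 (3.84 and 3.4) and chr19:30527295-30527752 (3.62 and 2.85). Between these lay a DKO-only region, chr19:30517867-30518148, with folds of 2.62 and 3.33 in DKO replicates 1 and 2. Only 2 of the 11 Dkk1 regions were shared by all 4 lists, at the promoter and at chr19:30553710-30554880, 4.8 kb upstream. That upstream region had folds of 3.47 and 3.3 in DKO and 5.1 and 4.19 in parental lists.

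Ctnnb1 had 12 regions, and none was DKO-only or parental-only. The promoter region was the single one that all 4 lists shared, and most of the others were found in a single parental list and nowhere else. Axin2, a scaffold of the destruction complex that β-catenin itself induces, had 3 parental-only regions and no DKO-only region among 20. Of these, chr11:108885392-108885970 lay 34.7 kb upstream of the start with folds of 4.47 and 3.78, and chr11:108894139-108894577 lay 26.0 kb upstream with 2.33 and 2.48. The third, chr11:108935177-108935909, lay 15.2 kb inside the gene with 3.36 and 3.86.

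All 5 parental-only regions of Tcf7l1 lay within the gene, between 14.3 and 89.3 kb downstream of the start. The strongest by rank was chr6:72699469-72699972, 89.3 kb downstream, with folds of 5.4 and 4.69, above 89.3% and 80.5% of the peaks of the parental lists. The next, chr6:72711592-72712122 at 77.2 kb, had 4.22 and 3.59. The next 2 stood nearer the middle of their lists or below it, chr6:72730491-72730782 at 58.4 kb (3.43 and 3.79) and chr6:72748287-72749054 at 40.4 kb (3.14 and 3.05). The replicates differed most at chr6:72774573-72775002, 14.3 kb from the start, with 3.93 in parental replicate 1 and 2.67 in replicate 2, above 65.9% and 4.7% of the peaks. The nearest DKO peak was 4.74 to 8.83 kb away from each of the 5. The DKO-only region, chr6:72641706-72642032, lay 147 kb downstream of the start with folds of 2.51 and 2.83, above 1.57% and 8.86% of the DKO peaks. A further 14 regions of the locus were found in all 4 lists, among them chr6:72616535-72617156 inside Tgoln1, with folds of 5.68 and 5.71 in DKO and 6.63 and 5.74 in parental lists.

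**Figure D4:**
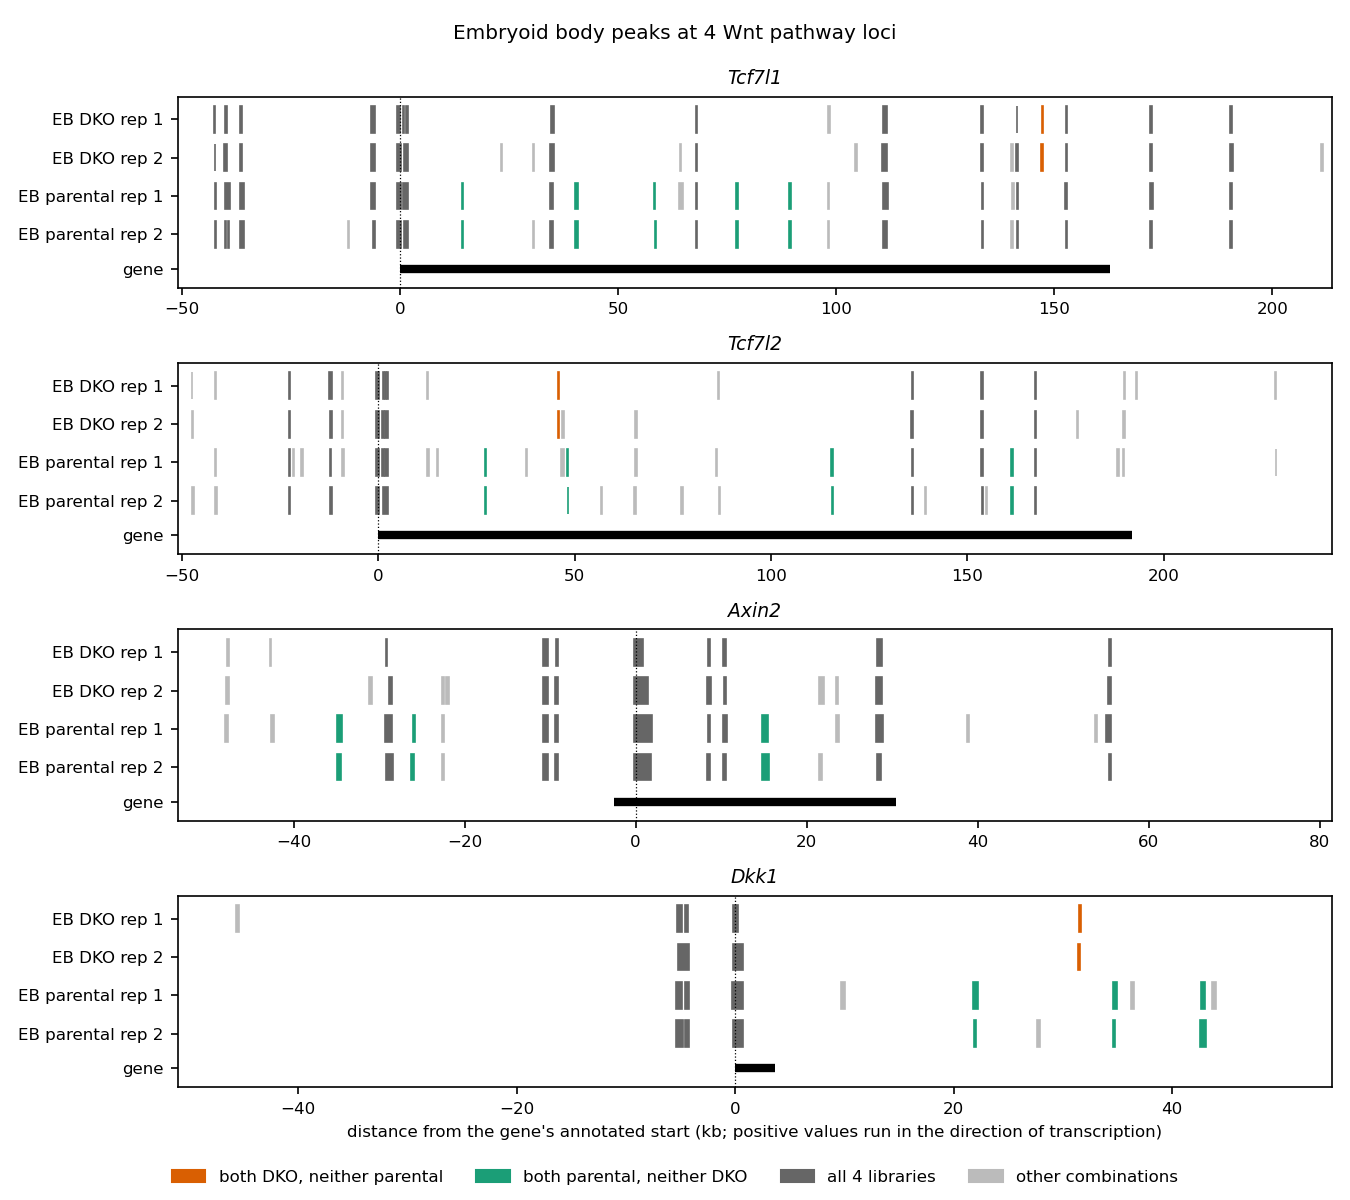
Embryoid body peaks at Tcf7l1, Tcf7l2, Axin2 and Dkk1 by library, against distance from the annotated start in kb (positive in the direction of transcription; black bar, gene). Green marks stand in both parental rows alone (5, 4, 3 and 3 regions), orange marks in both DKO rows alone (1 each at Tcf7l1, Tcf7l2 and Dkk1), dark grey in all 4 rows and light grey in other combinations.

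Tcf7l2 resembled Tcf7l1 in that all 4 parental-only regions and the DKO-only region lay within the gene. The parental-only regions were chr19:55768953-55769291, 27.3 kb downstream of the first start (folds 3.15 and 2.92), chr19:55789911-55790244 at 48.3 kb (2.75 and 3.42), chr19:55857186-55857585 at 116 kb (2.74 and 2.82) and chr19:55902838-55903436 at 161 kb (3.07 and 3.41). None stood above more than 44.5% of the peaks of its list. The region at 116 kb was 20.0 kb from the nearest DKO peak, the farthest of all 23. At 48.3 kb the pattern was close: a DKO peak lay 0.899 kb away, and the DKO-only region chr19:55787513-55787825 (2.82 and 3.0), at 45.9 kb, lay 0.573 kb from a parental peak. A shared region, chr19:55895381-55895763, 154 kb downstream, had the highest fold at the locus in both DKO lists (5.54 and 5.86) and in parental replicate 1 (5.75). In parental replicate 2 it had 4.18, below the 4.53 of the region over the first promoter, chr19:55741203-55741925. The shared region at 154 kb begins just after the window of another annotated Tcf7l2 promoter, chr19:55895071-55895370. That window had no peak in any list.

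Lef1, a TCF/LEF factor that mostly activates its targets, had 2 parental-only regions, both low in their lists. They were chr3:131107017-131107426, 3.08 kb upstream of the first start (2.44 and 2.62), and chr3:131190965-131191567, 81.0 kb into the gene (2.67 and 2.91). Tcf7, which encodes TCF1, had 18 regions, none in a single genotype and 7 in all 4 lists. At Sp5 the parental-only region chr2:70474986-70475557 began just after the end of the promoter window printed above. Its folds of 2.44 and 2.54 stood above 2.42% and 2.33% of the parental peaks. A DKO peak lay 0.708 kb away, and in DKO replicate 2 and parental replicate 1 a peak covered chr2:70476265-70476827 in the gene, with folds of 2.31 and 2.39.

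As a class, parental-only regions in the loci had lower folds than shared ones within the same lists, a description with no test. Their median fold was 3.15 in parental replicate 1 and 3.02 in replicate 2, above 34.8% and 23.5% of the peaks of those lists, and single regions ranged from 2.33 to 5.6. The 66 shared regions had medians of 3.6 and 3.9 in DKO and 3.73 and 3.61 in parental lists, above 52.9% to 59.7% of the peaks. The 3 DKO-only regions had medians of 2.62 and 3.0, above 3.66% and 16.5% of the peaks. Over all genes, parental-only regions stood at 36.8% and 32.2% and DKO-only regions at 40.6% and 41.8% by the same measure. Shared regions over all genes stood at 66.0% and 69.6% in DKO and 72.7% and 69.5% in parental lists. The shared regions of the loci thus stood lower than this in each embryoid body list. Parental-only regions were 216 to 768 bp wide (median 494) and shared regions 253 to 2127 bp (median 668.5). The nearest DKO peak lay 0.708 to 20.0 kb from a parental-only region (median 4.74), and 3 of 23 had one within 1 kb.

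**Figure D5:**
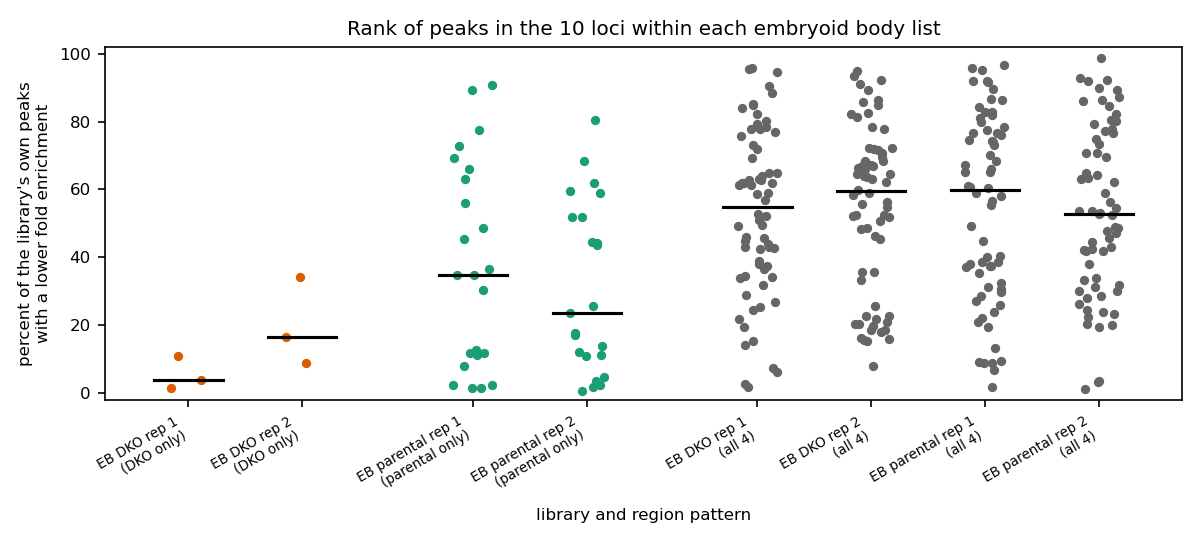
Rank of each region's peak within its own embryoid body list, as the percent of that list's peaks with a lower fold enrichment, by library and pattern (points, regions; bars, medians; sideways spread carries no meaning). Medians are 3.66 and 16.5 for the 3 DKO-only regions, 34.8 and 23.5 for the 23 parental-only regions, and 52.9 to 59.7 for the 66 shared regions.

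Few of the regions found in a single embryoid body genotype had a peak in ESCs. Of the 3 DKO-only regions 0 overlapped a peak of any ESC list, where 25.4% of all DKO-only regions did. The 3 regions are too few to read against that share. Of the 23 parental-only regions 1 did (4.35%), near the 7.62% of all parental-only regions. Of the 66 shared regions 37 did (56.1%), against 62.7% of all shared regions. The 1 parental-only region was that of the Lrp6 window in Bcl2l14, which had a peak in all 4 p53 knockout ESC lists and in no other ESC list.

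In ESCs the loci held fewer peaks, in shorter lists. The 10 loci had 0 and 0 peaks in backbone, 2 and 12 in S91K-Y191F, 37 and 40 in WDR5WT, 21 and 29 in clone C9, 31 and 34 in clone H9 and 28 and 1 in parental ESC lists. The lists with the fewest peaks in the loci were also short as a whole, with 1535 and 2492 peaks in backbone, 5174 in S91K-Y191F replicate 1 and 5330 in parental replicate 2. Among the longer lists the order was not that of length: WDR5WT replicate 1 had 37 of 29779 peaks in the loci (0.124%) and C9 replicate 2 had 29 of 31782 (0.0912%), while parental replicate 1 had 28 of 24367 (0.115%). Merging gave 59 regions over the 12 lists. Of these, 18 were found in 1 list, 13 in 6 or more and none in more than 9. A peak in all 4 embryoid body lists overlapped 34 of the 59, and one in any embryoid body list 49.

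The promoters of Tcf7l1 and Axin2 were the most widely found in ESCs. Each had a peak in both S91K-Y191F, both WDR5WT, all 4 p53 knockout lists and parental replicate 1, and in neither backbone list nor parental replicate 2. The signal of the Axin2 promoter peak, in the authors' unstated scaling, was 227 and 519 in S91K-Y191F, 2590 and 2530 in WDR5WT, 833 and 1040 in C9, 2160 and 1680 in H9 and 1030 in parental replicate 1. Within its list it stood above 12.6% and 57.5% of the peaks in S91K-Y191F, 96.9% and 95.4% in WDR5WT and 76.5% to 94.5% in p53 knockout lists. For Tcf7l1 the ranks were 37.4% and 65.8% in S91K-Y191F, 76.5% and 79.6% in WDR5WT and 73.8% to 84.4% in p53 knockout lists. The Dkk1 promoter had a peak in 7 ESC lists, Ctnnb1 in 5, Tcf7l2 in 4, Wnt3 in 2 and Tcf7 in 1. Lef1 had one in 3 lists at its first start and in 6 at a start farther downstream. An end of Lrp6 had one in 3 lists.

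The ESC comparisons ask what loss of WDR5 and p53 does in undifferentiated cells and what each WDR5 form brings back. Between backbone and parental ESCs, 0 of 28 regions were backbone-only (0.423% of all regions were) and 1 was parental-only (3.57%; 12.1% of all regions were), with 0 shared by all 4 lists (3.35% of all regions). The parental-only region, chr3:131271603-131272364, lies in Hadh within the Lef1 window. Between S91K-Y191F and backbone ESCs, 2 of 12 regions were S91K-Y191F-only (16.7%, and 16.7% of all regions were) and 0 were backbone-only (0.42% of all regions) or shared by all 4 lists (5.29% of all regions). The 2 were the Tcf7l1 promoter region, chr6:72788922-72789739, and the Axin2 promoter region, chr11:108920045-108920516. Between WDR5WT and backbone ESCs, 27 of 46 regions were WDR5WT-only (58.7%; 65.5% of all regions were), 0 were backbone-only (2.07% of all regions) or shared (1.05% of all regions), and every one of the 10 loci had at least 1. In these 3 comparisons the members' shares were near or below the background, and each rests on the short backbone lists. Without parental replicate 2, 0 regions were backbone-only and 28 parental-only, and without S91K-Y191F replicate 1, 12 were S91K-Y191F-only and 0 backbone-only. Backbone lists had 0 peaks in the loci, so every region of the 1 list left was called. These 2 counts are thus set by the rule and say nothing about the loci.

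Between S91K-Y191F and WDR5WT ESCs, 18 of 46 regions were WDR5WT-only (39.1%; 33.0% of all regions were), 0 were S91K-Y191F-only (2.25% of all regions) and 2 were shared (4.35%; 10.5% of all regions were). The WDR5WT-only regions included the promoters of Tcf7l2, Ctnnb1 and Dkk1 (chr19:55741188-55741890, chr9:120932956-120933786 and chr19:30548610-30549737), where both WDR5WT lists and neither S91K-Y191F list had a peak. The shared regions were the Tcf7l1 and Axin2 promoters. S91K-Y191F lists had 5174 and 16257 peaks and WDR5WT lists 29779 and 32709, so mutation and list length cannot be told apart. Without WDR5WT replicate 1, 0 regions were S91K-Y191F-only and 28 WDR5WT-only. A WDR5WT-only call then needs 1 list, and no share over all regions is given for this setting.

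WDR5WT and p53 knockout lists are alike in length. By label both lack p53, and WDR5 comes from the plasmid in the first and from the cells' own Wdr5 in the second. Of 57 regions, 3 were in both WDR5WT lists and in none of the p53 knockout clones (5.26%; 3.17% of all regions were), 2 in all 4 p53 knockout lists and no WDR5WT list (3.51%; 1.63% of all regions were) and 11 in all 6 (19.3%; 40.1% of all regions were). The WDR5WT-only regions were chr2:70476070-70477182 inside Sp5, chr3:131102146-131102733, 7.86 kb upstream of Lef1, and chr11:52231657-52232322, inside Skp1 in the Tcf7 window. The Sp5 region had signals of 206 and 494, above 1.92% and 46.9% of the peaks of the WDR5WT lists, and no other ESC list had a peak there. The Lef1 region had 434 and 624, and parental replicate 1 had a peak there too. The p53-knockout-only regions were chr3:131245849-131246986 in Hadh, at Lef1, and chr6:134416473-134417589 in Bcl2l14, at Lrp6. Counts of 2 and 3 are too few to read against the background. A call in the first direction needs 2 lists and in the second 4, so the 2 counts do not compare directly. The 3 WDR5WT-only and 2 p53-knockout-only regions became 10 and 3 without WDR5WT replicate 1, 8 and 2 without WDR5WT replicate 2, and 6 and 3 without H9 replicate 2. With a list left out fewer lists decide a call, and no share over all regions is given for these settings.

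Between the p53 knockout clones and parental ESCs, 3 of 49 regions were in all 4 knockout lists and neither parental list (6.12%; 10.8% of all regions were), 0 were parental-only (2.13% of all regions) and 1 was in all 6 (2.04%; 8.72% of all regions were). The knockout-only regions were chr6:72740343-72741117, 48.3 kb inside Tcf7l1, with signals of 282 and 350 in C9 and 588 and 440 in H9, and chr6:134413884-134414880 and chr6:134416473-134417589, both in Bcl2l14. The Tcf7l1 region was also in WDR5WT replicate 1 and in no embryoid body list. The 3 knockout-only regions became 6 without C9 replicate 1, 5 without H9 replicate 1 or 2 and 13 without parental replicate 1, with 0 parental-only in each of these settings. Without the short list of parental replicate 2, 3 regions were knockout-only and 6 parental-only. A parental-only call then needs 1 list and a knockout-only call 4, so these 2 counts do not compare directly. No share over all regions is given for the settings with a library left out. The comparisons with parental ESCs share the short list of parental replicate 2, and those with backbone or WDR5WT ESCs share libraries with each other.

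The rest of the pathway was read from a list of 82 other Wnt genes, all of which matched. Their windows held 1090 embryoid body regions, of which 23 were DKO-only (2.11%) and 70 parental-only (6.42%), beside 3.78% and 4.59% of all regions. The 70 include the 3 parental-only regions of Wnt3, which lie in Wnt9b and were known when the genes were chosen. This list is thus not wholly separate from the 10 loci. More DKO-only than parental-only regions were found at 5 genes, more parental-only at 42, equal numbers above 0 at 13 and none at 22. Over all genes, 18.5% had more DKO-only and 27.0% more parental-only regions. Ror1, a receptor of Wnt5a, had 5 parental-only regions and no DKO-only region, and the ligand gene Wnt5b had 2 DKO-only and 4 parental-only regions. Wnt9b had 1 DKO-only and 3 parental-only regions, and those 3 are the ones given above for Wnt3. Bcl9, a coactivator that binds β-catenin, had the reverse, with 2 DKO-only regions and no parental-only region. Of receptors and their modulators, Fzd7, Lgr4 and Znrf3 had 2 parental-only regions each, Lgr5 and Ror2 had 1 DKO-only and 2 parental-only regions each, and among the dishevelled genes Dvl1, Dvl2 and Dvl3 no region was found in a single genotype. In ESCs, 17 of 115 regions of this list were S91K-Y191F-only against backbone (14.8%, beside 16.7% of all regions). Against backbone, 176 of 276 were WDR5WT-only (63.8%, beside 65.5% of all). Between S91K-Y191F and WDR5WT, 1 of 281 was S91K-Y191F-only and 93 were WDR5WT-only (33.1%, beside 33.0% of all), so these shares lay near the background.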

How the data were processed

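Peak lists of 16 ATAC-seq libraries were analysed. Per the submitters' processing notes, the build was mm10 and the tools were MACS2 2.1.2, Genrich 0.6, Bowtie2 2.3.5, DESeq2 and SAMtools; what each one did is not given in the sources used here. Each deposited ESC list gives per peak a score, a signal (scaling not stated, lowest value 200), a −log10 p and a summit. In the deposited embryoid body lists the columns are a score, a fold enrichment ratio over local background, and −log10 p and q values. These values are the authors' own; they served only to describe, rank or filter peaks within a list. The lists hold no counts, so precision by depth cannot be given.

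Peaks outside chromosomes 1 to 19, X and Y were left out. Overlapping peaks (at least 1 bp) of the libraries compared were merged. A region was called for a group when it overlapped a peak in all of that group's lists and in none of the other group's. Such calls have no test; each count stands beside the percent called over all regions within 50 kb of any of 21883 protein-coding genes (GRCm38.p6). The share of a list's peaks in the loci was compared by a two-sided exact permutation test over libraries. Distances run from a region's midpoint to the gene's first RefSeq promoter start; Lrp6 had none. The calling of regions was tested on simulated lists. Python 3.11.15, pandas 2.3.3, NumPy 2.4.6, SciPy 1.17.1 and matplotlib 3.10.9 were used.

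The members, lists and tests were chosen with earlier results of these data known. Genes named are the 10 members, Wdr5 and Trp53, up to 3 genes of the wider list with the most called regions, genes that hold a named region, and the 3 genes of the table with the most parental-only regions; other genes named were chosen after their values were seen. Alternatives were equal list length, the upper 50% of each list, peaks covering at least 50% of a region, merging across 200 bp, windows of 25 and 100 kb, a replicate block and leaving out each replicate. Sequences of regions away from promoters were not used here.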

Additional observations from a re-analysis of the deposited data

How the results depend on the processing

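Of 109 alternative values for the main counts and the share of peaks, 66 stayed within the limits of change (1.5 times for a count), 43 moved and 0 reversed; of 128 for single genes, 101 stayed, 27 moved and 0 reversed. The cause of the moves was not tested. A count of regions has no sign, so for such counts 0 reversed says nothing about direction. The choice of genes favoured a lower DKO share of peaks in the loci. The difference in this share between DKO and parental embryoid bodies stayed negative in every alternative run. Leaving out a library gave -0.0522 to -0.0374 percentage points. With the replicate number as a block it was -0.0448 (two-sided exact sign-flip permutation p = 0.5, the smallest possible); same-numbered libraries did not deviate together (r = -0.00102 over 109456 regions), so the numbers were not taken to pair them.

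Regions found in a single embryoid body genotype (26 in all, 3 DKO-only and 23 parental-only) numbered 16, 5 and 11 in the upper 50% of each list and 44 to 56, 4 to 17 and 29 to 52 when a library was left out. Windows of 100 kb gave 9 DKO-only regions. In 2 alternatives chosen after seeing the data, gene bodies alone gave 14 (12 parental-only) and the members without Tcf7l1, Tcf7l2, Dkk1 and Wnt3 gave 8 (0 DKO-only and 8 parental-only).

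At equal list length, the ESC counts became 0 for backbone against parental, for S91K-Y191F and for WDR5WT against backbone, for S91K-Y191F against WDR5WT and for p53 knockout against parental, and 2 for WDR5WT against p53 knockout. The upper 50% of each list gave 0, 1, 7, 4 and 3 for backbone against parental, S91K-Y191F against backbone, WDR5WT against backbone, S91K-Y191F against WDR5WT and WDR5WT against p53 knockout. Windows of 25 kb gave 0 for backbone against parental and 1 for p53 knockout against parental, and windows of 100 kb gave 3 for backbone against parental. With a library left out, the counts ran from 1 to 28 for backbone against parental, 2 to 12 for S91K-Y191F against backbone, 27 to 40 for WDR5WT against backbone, 18 to 28 for S91K-Y191F against WDR5WT, 5 to 13 for WDR5WT against p53 knockout and 3 to 13 for p53 knockout against parental. Fewer lists decide a call in these settings, so higher counts are not a result about the loci. The ESC counts of comparisons with backbone, S91K-Y191F or parental lists could not be read apart from list length; WDR5WT and p53 knockout lists were alike in length. Without parental replicate 2, p53 knockout against parental gave 3 knockout-only and 6 parental-only regions. Depth, which limits every list, is unknown.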
